A study of Sus scrofa with 18 samples.

Results

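The genes described here encode the proteins of the cytosolic ribosome, the particle that translates nearly all messenger RNA of the cell. They were taken from the array's annotation by symbol: RPL or RPS followed by a digit, RPSA, RPLP0, RPLP1 or RPLP2, with the RPS6K kinases left out, and only probe sets annotated to a single symbol were used. The rule found 64 genes among the 6765 genes with a symbol of their own on the array, of which 38 have RPL symbols and 26 have RPS symbols. A total of 96 probe sets measure them, and each gene was represented by the probe set with the highest mean over the 18 arrays. The annotation of the pig genome by RefSeq (assembly Sscrofa11.1) holds 84 protein-coding symbols that meet the rule. The 20 of these that have no probe set of their own here, among them RPS3, RPL10, RPS14 and the muscle paralog RPL3L, are not analysed here. RPS19BP1 meets the rule by its symbol but encodes a protein that binds RPS19, not a ribosomal protein.

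Tissue of the right ventricular free wall was taken from each of 9 pigs of a mixed breed (Hampshire, Yorkshire and Swedish Landrace) in 2 states, Failure and Baseline. The Failure samples followed ligation of coronary arteries of the right ventricular wall. In 6 pigs (6, 8, 9, 11, 12 and 13) the Failure sample is labelled with 120 min of ischemia. In the other 3 pigs (5, 10 and 14), which weighed 30 to 40 kg, failure was defined by a right atrial pressure over 20 mmHg. The Baseline samples of the 6 pigs carry no such entry. Those of pigs 5, 10 and 14 carry the same pressure and weight entries as their Failure samples. No pigs sampled again without ligation were analysed, so time under surgery and ligation cannot be told apart. The labels give neither age nor sex.

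Ribosomal proteins assemble with ribosomal RNA into a small subunit, which reads the messenger, and a large subunit, which forms the peptide bonds. Their messengers are abundant and long-lived in most tissues and begin with a terminal oligopyrimidine tract, through which mTOR signalling controls how strongly they are translated. Much of the acute control of ribosomal protein synthesis therefore acts on translation and leaves the messenger level as it is, and an array of messenger levels does not measure that control.

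The values are log2 intensities of one Affymetrix array per sample. Array medians lay between 5.59 and 5.66, and single values between 2.08 and 15.2. The label of ventricular tissue was checked on 9 measured ventricular cardiomyocyte markers, whose mean levels lay between 13.3 and 14.9. None passed the test. Of their changes, 8 were negative and 1 was positive, with a median of -0.04. Of the 5 measured red blood cell markers, 3 passed the test with lower values in failure than at baseline (median of the 5 log2 changes, -0.83). None of the 9 measured lymphocyte markers passed it. At an unadjusted p under 0.05 in limma, 3 of these 9 were lower in failure, against 6.14% of the array in either direction. All 4 measured atrial markers had positive changes, up to 1.11, and none passed. For GAPDH, the array carries control probe sets at both ends of the messenger, and their log2 difference (3′ minus 5′) grows as RNA is shortened from the 5′ end. It was higher in failure than at baseline in 6 of 9 pigs, by 0.24 ± 0.56 on average (SD, n = 9). In pig 5 this difference was 3.55 in failure and 2.61 at baseline, above all other pigs in both states. The part of red cell content, cell composition and RNA quality in the values below was not tested except where stated, and in whole tissue fewer cells of a type and less RNA per cell cannot be told apart.

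Failure was compared with baseline in one limma model over all 23935 probe sets, with the pig as a block and Benjamini-Hochberg adjustment over all of them. None of the 64 ribosomal protein genes passed the adjusted threshold of 0.05 in either direction. Over the whole array 16 probe sets did, a share of 0.0668%. At an unadjusted p under 0.05 the count was 1 of 64 genes, RPL30, which was higher in failure. The share over the array was 6.14% in either direction and 3.31% for higher values alone. Without limma's pooling of the variance, 6 of 64 genes stood at an unadjusted p under 0.05, all higher, against 5.98% of the array, and none passed after adjustment. The failure and baseline values overlapped for all 64 genes, as they did for every probe set of the array (0% without overlap).

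The fold differences were small. The median log2 change (failure minus baseline) over the 64 genes was 0.013, against -0.0066 over the 6765 genes, with 39 ribosomal protein genes above 0 and 25 below. Changes ran from -0.07 for RPL9 to 0.66 for RPL30. Apart from RPL30 the highest was 0.11, for RPL31. The changes also varied little from pig to pig: the median SD of the paired change was 0.109 over the 64 genes and 0.205 over all genes. The median standard error was 0.054 against 0.070. The members were also brighter, with a median level of 12.7 against 7.10. The ventricular cardiomyocyte markers, with a median level of 14.1, had a median SD of 0.109 and a median standard error of 0.054. The narrow spread was thus not particular to the ribosomal protein genes.

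The narrow spread bounds how large a change could have been missed. For 62 of 64 genes the whole 95% confidence interval of the change lay between -0.25 and 0.25 on the log2 scale, a fold of at most 1.19 either way. The exceptions were RPL30 and RPL26. Over the array 68.7% of probe sets had intervals that narrow, a share that includes many dimmer probe sets. The share among bright probe sets alone was not counted. The limit of 0.25 was chosen after the values had been seen.

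**Figure D1:**
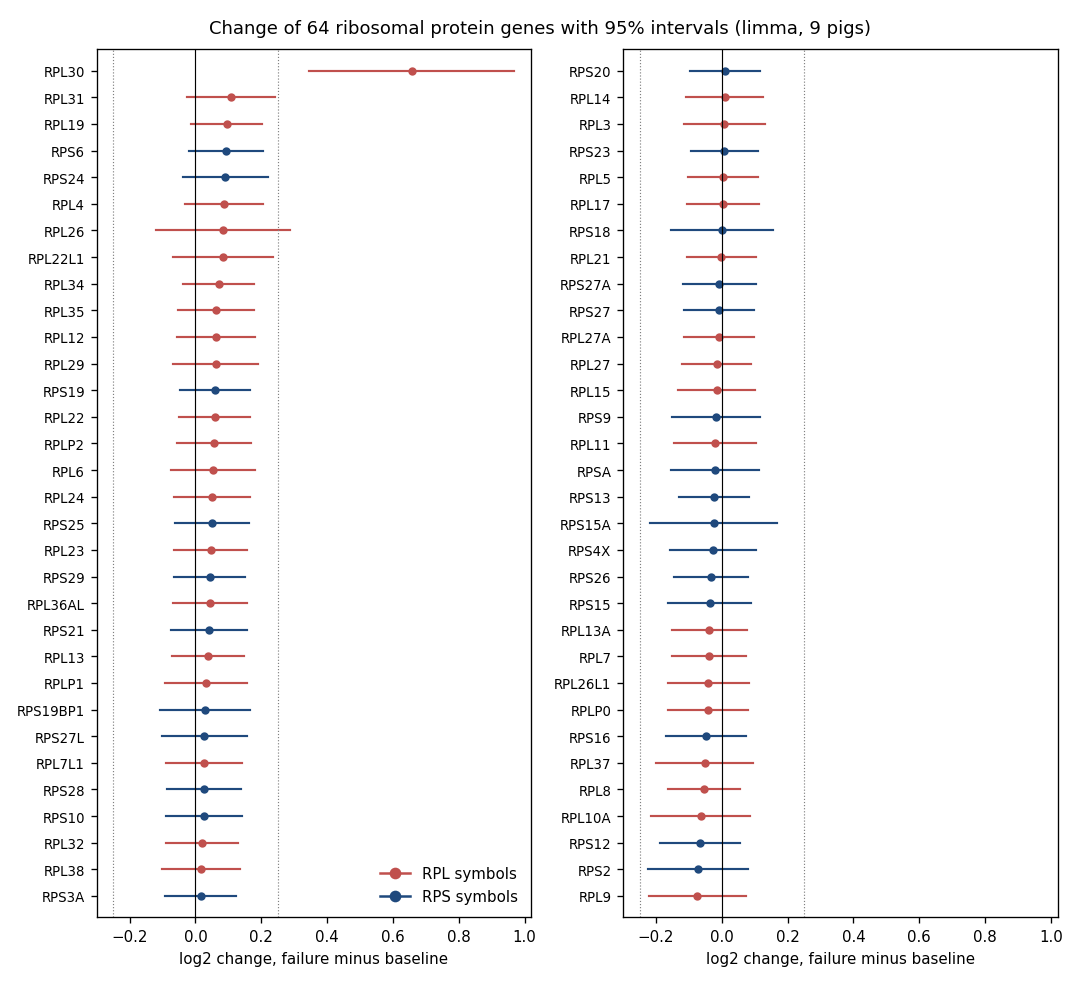
Log2 change in failure minus baseline of each of the 64 ribosomal protein genes (points, limma with 9 pigs as blocks) with its 95% confidence interval (bars), RPL symbols in red and RPS symbols in blue, and dotted lines at -0.25 and 0.25. All intervals but those of RPL30 and RPL26 stay inside the dotted lines, and only the interval of RPL30 leaves out 0.

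This bound is on intensities and is subject to what the array can resolve. The chosen probe sets of 57 genes were brighter than 95% of the array's probe sets (9.82), and the array's highest value was 15.2. Whether such bright probe sets understate a change was not tested. The near-equal array medians show that the arrays were put on a common scale, so a change shared by all messengers would not be visible. The probe sets of RPL30, RPL26 and RPS15A were dim, with mean levels of 4.02, 4.59 and 3.48, below the array's median of 5.63. Ribosomal protein genes have many processed copies in mammalian genomes, and which copies a probe set reads was not tested.

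Proteins of the P stalk recruit the elongation factors to the ribosome. RPLP0, its base, had levels of 13.07 to 13.58 with a median of 13.47 in failure and of 13.16 to 13.59 with a median of 13.51 at baseline. The groups overlapped almost wholly, and the log2 change was -0.04 ± 0.06 (SE). The dimmer probe set of RPLP0 (mean level 7.72) gave 0.09 ± 0.08 (SE). RPLP1 and RPLP2, which form the flexible arms, had log2 changes of 0.03 ± 0.06 and 0.06 ± 0.05 (SE). In pig 9 RPLP1 was 0.35 higher in failure, while in the other 8 pigs it lay between -0.16 and 0.08.

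RPL5 and RPL11 bind the 5S ribosomal RNA, and when ribosome assembly fails the complex binds MDM2 and stabilises p53. RPL5 had a median of 12.93 in failure (12.76 to 13.01) and of 12.93 at baseline (12.72 to 13.08), a log2 change of 0.0037 ± 0.050 (SE). RPL11 had a median of 13.06 in failure (12.82 to 13.21) and of 13.10 at baseline (12.93 to 13.32), a change of -0.02 ± 0.06 (SE). Both sets of values overlapped, and the adjusted p in limma was 0.997 for RPL5 and 0.980 for RPL11.

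All 9 measured genes of a list drawn up for the peptide exit tunnel had positive changes, and none passed the test. Their median was 0.06 and the highest value 0.11. RPL24 and RPL29, at 0.05 and 0.06, are in the list, but their place at the tunnel was not checked. By comparison, positive changes were found in 39 of the 64 members and in 3136 of the 6765 genes. RPL31, at the tunnel's exit, had levels of 12.42 to 12.82 (median 12.66) in failure and of 12.22 to 12.74 (median 12.59) at baseline, and was higher in failure in 6 of 9 pigs. RPL19, which also bridges the subunits, had a log2 change of 0.09 ± 0.05 (SE) and was higher in failure in 7 pigs, lower in 1 and equal in 1. RPL4, which narrows the tunnel, had a log2 change of 0.09 ± 0.06 (SE). The limma adjusted p was 0.864 for RPL31, 0.850 for RPL19 and 0.878 for RPL4. The count of 9 positive values was unchanged under 3 rescalings of the arrays. It was 8 when pig 5, pig 8 or pig 9 was left out, with the GAPDH difference as a covariate, and within either set of failure labels. These recounts reuse the same 9 pigs and add no separate support. The list was chosen with earlier results of these data known.

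RPL22 had a log2 change of 0.06 ± 0.05 (SE) and its paralog RPL22L1 one of 0.08 ± 0.07 (SE). RPL26, at the tunnel exit, was read only by a dim probe set. Its change ran from -0.43 in pig 14 to 0.55 in pig 12 and averaged 0.08 ± 0.095 (SE).

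Of the 8 measured genes of a list drawn up for the messenger channel and the decoding site, 3 had positive and 5 had negative changes. Their median was -0.02. The list includes RPS12, whose place at the channel was not checked. It leaves out RPS9, at the messenger's entry, which had a log2 change of -0.02 ± 0.06 (SE). RPS2, at the messenger's entry, had levels of 12.23 to 13.20 (median 13.01) in failure and of 12.69 to 13.23 (median 13.002) at baseline. Its lowest failure value came from pig 5, 0.46 below that animal's baseline, and the change over 9 pigs was -0.07 ± 0.07 (SE). RPS12, in the beak of the small subunit, was lower in failure in 7 of 9 pigs, by 0.07 ± 0.06 (SE) on average, and did not pass the test. RPS23, beside the decoding centre, had the smallest spread of all members. Its paired changes had an SD of 0.041 and lay between -0.05 and 0.07.

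RPS6, the substrate of the S6 kinases, was measured with levels of 12.63 to 13.05 (median 12.81) in failure and of 12.49 to 12.90 (median 12.78) at baseline. It was higher in failure in 6 pigs, lower in 2 and equal in 1, by 0.09 ± 0.05 (SE), with an adjusted p of 0.864 in limma. The array reads the messenger and not the phosphorylation of the protein. RPSA, also known as the laminin receptor, had a log2 change of -0.02 ± 0.06 (SE).

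**Figure D2:**
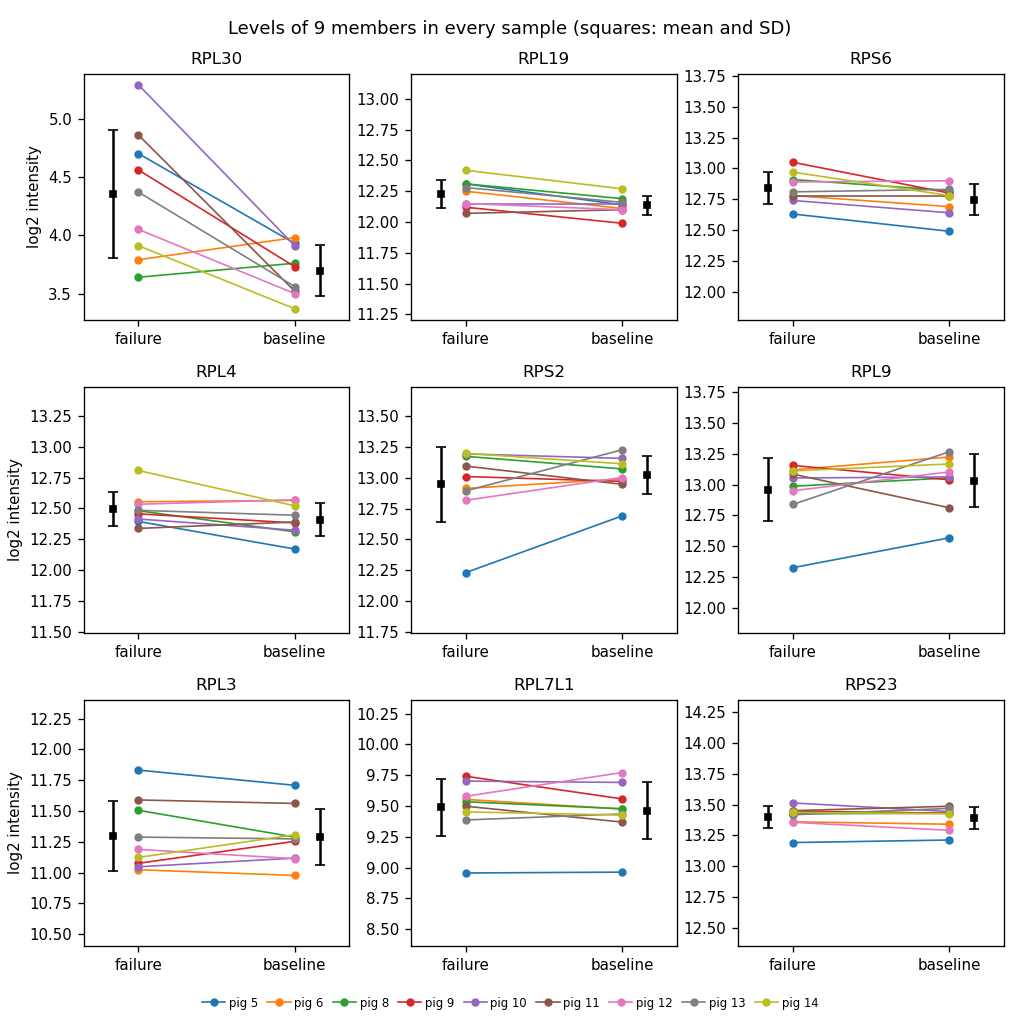
Log2 intensity of 9 ribosomal protein genes in failure (left of each panel) and at baseline (right), with one line per pig and black squares for the group mean with its SD (9 pigs each). RPL30 is higher in failure in 7 of 9 pigs, and in RPL7L1, RPS2, RPL9 and RPS23 the blue line of pig 5 is the lowest in both states.

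RPL30 stood apart from the other members. It is a large-subunit protein that in mammals also binds the selenocysteine insertion element of selenoprotein messengers. In failure its levels were 4.70, 3.79, 3.64, 4.56, 5.29, 4.86, 4.05, 4.37 and 3.91 in pigs 5, 6, 8, 9, 10, 11, 12, 13 and 14. At baseline they were 3.93, 3.98, 3.76, 3.73, 3.91, 3.52, 3.50, 3.56 and 3.37 in the same pigs. Pigs 6 and 8 were slightly lower in failure and the other 7 were higher.

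The mean level of RPL30 was 4.35 ± 0.55 in failure and 3.70 ± 0.22 at baseline (SD, n = 9 each). The log2 change was 0.66 ± 0.145 (SE), a fold of 1.58 with a 95% interval of 1.27 to 1.96. The adjusted p in limma was 0.221, so RPL30 did not pass the test, and the lowest among the alternatives was 0.0675, without pig 8. The range at baseline ended at 3.98 and 6 of the 9 failure values lay above it. The array holds no other probe set annotated to RPL30 alone against which this dim one could be set.

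The large-subunit proteins with the smallest p among the negative changes were RPL9, RPL8 and RPL10A. RPL9, near the base of the P stalk, had a median of 13.05 in failure (12.33 to 13.16) and of 13.06 at baseline (12.57 to 13.27). It was lower in failure in 7 of 9 pigs, by 0.07 ± 0.07 (SE), on its brightest probe set. The dimmer RPL9 probe sets, at mean levels of 6.14 and 3.92, gave changes of 0.06 ± 0.05 and -0.02 ± 0.08 (SE). RPL8, close to the peptidyl transferase centre, had a log2 change of -0.05 ± 0.05 (SE). RPL10A, of the stalk that guides spent transfer RNA out of the ribosome, had a log2 change of -0.06 ± 0.07 (SE), with a range from -0.48 in pig 13 to 0.25 in pig 9. None of these differences exceeded its error by enough to pass. The smallest adjusted p in limma among all negative changes of the members' brightest probe sets was 0.916.

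RPL13A, RPL32 and RPS18 are often used as reference genes in quantitative PCR. RPL32, by its brightest probe set, had levels of 12.96 to 13.23 (median 13.10) in failure and of 13.03 to 13.14 (median 13.08) at baseline, and a change of 0.02 ± 0.05 (SE). Its dimmer probe set (mean level 6.93) gave 0.19 ± 0.12 (SE), with single pigs from -0.58 to 1.01. RPL13A, by its brightest probe set, had a log2 change of -0.04 ± 0.05 (SE). Its dimmer probe sets, at mean levels of 6.50 and 4.95, gave 0.06 ± 0.11 and 0.05 ± 0.07 (SE). On the first of these, single pigs ran from -0.56 to 0.62. RPS18 had a mean change of 0.00034, yet single pigs ran from -0.46 in pig 9 to 0.34 in pig 13 on its brightest probe set, and the SD of 0.220 was among the 5 largest of the members. Its other probe sets, at levels of 12.42 and 11.97, had changes of 0.03 and 0.02 with SDs of 0.093 and 0.113, and in pig 9 they read 0.20 and -0.07, so the wide spread was seen on the brightest probe set alone.

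Some ribosomal proteins have a second gene. RPS27 and its p53-inducible paralog RPS27L had log2 changes of -0.0090 ± 0.049 and 0.03 ± 0.06 (SE), and RPL26L1 and RPL36AL of -0.04 ± 0.06 and 0.04 ± 0.05 (SE). RPL7L1, which acts in the assembly of the large subunit, had a log2 change of 0.03 ± 0.05 (SE). Of the 12 members whose symbol ends in a letter suffix, with or without a paralog number, 5 had positive and 7 negative changes. Such a suffix does not by itself mark a second gene, as in RPL10A, RPL13A and RPL27A, so this is not a count of paralogs. Genes mutated in human Diamond-Blackfan anaemia, a failure of red cell production, numbered 16 among the members, with 9 positive and 7 negative changes and a median of 0.01. RPS19, the most often mutated of them, was higher in failure in 8 of 9 pigs, by 0.06 ± 0.05 (SE), with a median of 13.14 in failure and of 13.10 at baseline, and did not pass the test. RPS19BP1, the RPS19-binding protein, had a log2 change of 0.03 ± 0.06 (SE).

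The further probe sets of 24 members gave 32 further measurements, at levels from 3.24 to 12.6. Of these, 25 had positive and 7 negative changes, with a median of 0.06, and none passed the adjusted threshold. At an unadjusted p under 0.05 the count was 4 of 32, all higher in failure: RPS13, RPL7, RPL34 and RPL31, named after their values had been seen. That is 12.5% of the 32, beside the 6.14% of the array in either direction and 3.31% higher. The dim probe set of RPL7 read 3.43 to 4.51 (median 3.89) in failure and 3.06 to 3.72 (median 3.35) at baseline, a log2 change of 0.45 ± 0.11 (SE). The bright probe set of the same gene had a change of -0.04 ± 0.05 (SE). The dim RPS13 probe set had a log2 change of 0.32 ± 0.07 (SE) against -0.02 ± 0.05 (SE) for the bright one, and the dim RPL34 probe set one of 0.36 ± 0.11 (SE) against 0.07 ± 0.05 (SE).

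These 3 probe sets and that of RPL30 had mean levels of 3.26 to 5.07, below the array's median. For RPL7, RPS13 and RPL34 the bright and the dim probe set of one gene thus gave changes of different size, a difference that was not tested, and the largest gap, 0.49 for RPL7, stayed under the 0.5 set for naming such genes. What transcript each dim probe set reads was not tested. The limma adjusted p was 0.326 for RPL7, 0.276 for RPS13 and 0.528 for RPL34.

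**Figure D3:**
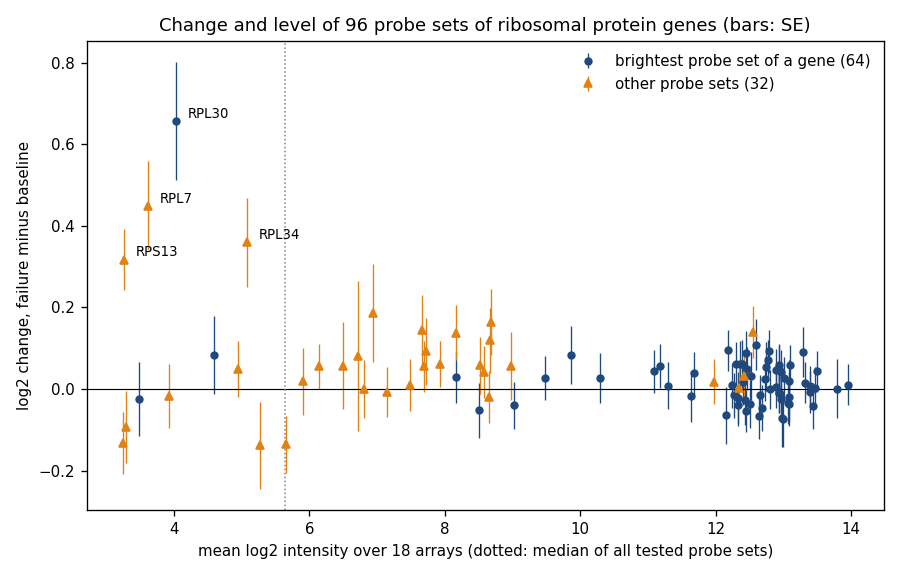
Log2 change in failure minus baseline (vertical, bars: SE) against mean log2 intensity over 18 arrays (horizontal) for the 64 chosen probe sets (circles) and the 32 other probe sets of the same genes (triangles), with the array's median marked by a dotted line. The bright probe sets lie close to 0, and the 4 highest changes, named in the plot, belong to probe sets left of the dotted line.

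The number of decimals in the deposited values was not the same for all probe sets. For 1467 of the 23935 tested probe sets every value has at most 2 decimals. Of these, 97.5% stood at an unadjusted p under 0.05 in the paired test without pooled variance, while 0% of the others did. Among the ribosomal protein genes the chosen probe sets of RPL19, RPL22, RPL30, RPL34, RPS19 and RPS6 carry the short values, as do the further probe sets of RPL31, RPL34, RPL7 and RPS13, and all 10 were higher in failure. Of the 1467 probe sets 771 were higher in failure and 696 lower. This count was made after the values had been seen, and the 6 genes are the same 6 that stood at an unadjusted p under 0.05 in that test. Their adjusted p in it was between 0.582 and 0.801.

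Although no gene passed the test, the changes of the members had a weak positive correlation across animals. The mean correlation between the paired changes of any 2 members over 9 pigs was 0.147, against 0.0143 between any 2 of all genes. Such a correlation was not particular to the members. Among the other gene lists it ran from -0.048 (neutrophil markers) to 0.518 (mitochondrial ribosomal proteins), with 0.379 for the ventricular cardiomyocyte markers. Each mean is a description over 9 animals whose values share an array, its scaling and its RNA quality. At baseline the members' mean correlation was 0.296 and in failure 0.128, against 0.0037 and 0.011 over all genes. The other lists ran from -0.023 to 0.554 at baseline. The members' correlation of changes depended on the scaling of the arrays, at 0.0788 with quantile normalization and 0.258 with centring on the 75th percentile. It was 0.0841 without pig 9 and -0.0092 within the 3 pigs labelled by atrial pressure.

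Pig 9 had the largest shared shift. In it 52 of 64 members were higher in failure (median log2 change 0.12), whereas the medians of the other 8 pigs lay between -0.03 and 0.04. Its median over all genes was -0.00098. Pig 9 also had the lowest change of the GAPDH 3′ to 5′ difference, -0.44. In pig 13, where that change was highest, 1.18, the median change of the members was -0.02, with RPL10A at -0.48, RPS2 at -0.33 and RPL9 at -0.43. The members' median was 0.03 in pig 5 with a GAPDH change of 0.94, and 0.0048 in pig 14 with a GAPDH change of -0.33. It was lowest, -0.03, in pig 6 with a GAPDH change of 0.07. In pigs 8, 10, 11 and 12 it was 0.04, 0.009, 0.03 and -0.007, with GAPDH changes of 0.25, 0.0016, -0.09 and 0.55. The relation of these medians to the GAPDH changes was not tested. With the GAPDH difference as a covariate the median over the members was 0.019 with 48 of 64 positive, and again none passed. Without pig 9 the median was 0.0028, with 35 positive and 29 negative.

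**Figure D4:**
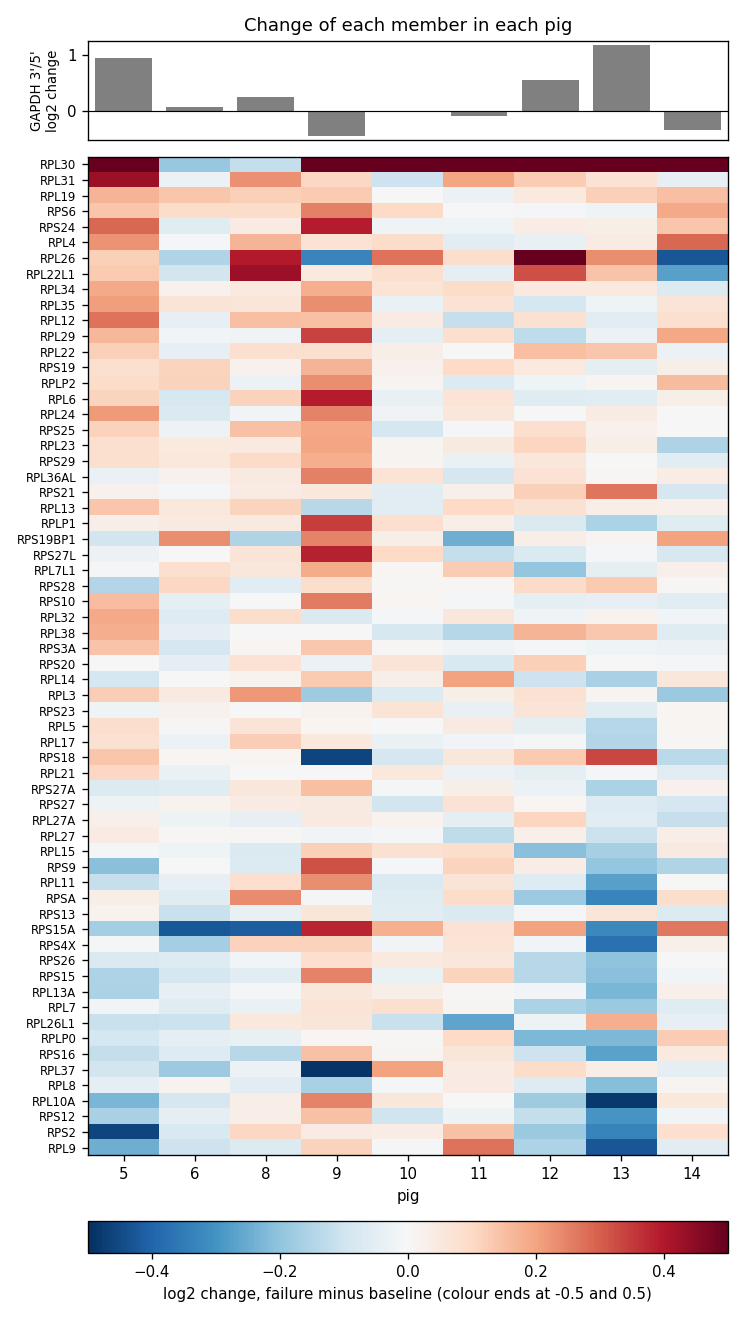
Log2 change in failure minus baseline of each of the 64 ribosomal protein genes (rows) in each of the 9 pigs (columns), red for higher in failure, with colours ending at -0.5 and 0.5, and above it the change of the GAPDH 3′ to 5′ log2 difference. Pig 9 is red in most rows (52 of 64), and pig 13, with the largest GAPDH change (1.18), has many blue cells among the lower rows.

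Pig 5 differed from the other animals in level more than in change. Its value was the lowest of 9 for 27 members in failure and for 35 members at baseline. RPS2 lay 0.81 below the mean of the other pigs in failure and 0.37 below it at baseline, and the value of RPL7L1 was 8.96 in both states, against 9.39 to 9.74 in failure and 9.37 to 9.77 at baseline elsewhere. Not every member was low: RPL3, which shapes the peptidyl transferase centre, was 0.60 above the others in failure and 0.47 above them at baseline. Pig 5 had the highest GAPDH 3′ to 5′ differences in both states, and their part in these levels was not tested. Without pig 5 the members' median change was 0.0076, with 33 positive and 31 negative.

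For some members the differences between animals were larger than those between states. The SD of the pig means over the SD within pigs was 3.16 for RPS23, 2.98 for RPL7L1, 2.79 for RPL3, 2.67 for RPL27 and 2.62 for RPS20. Without pig 5, left out here after the values had been seen, it was 1.86 for RPS23, 1.47 for RPL7L1, 2.06 for RPL3, 2.49 for RPL27 and 2.55 for RPS20. RPL3 ranged between animals from 11.02 to 11.83 (median 11.19) in failure and from 10.98 to 11.71 (median 11.27) at baseline, and pigs 5 and 11 were the highest in both states. Its mean change was 0.0081 ± 0.057 (SE). RPL27 and RPL21, both large-subunit proteins, had paired changes with an SD of only 0.060 and 0.051. RPS20, in the head of the small subunit, had a log2 change of 0.01 ± 0.05 (SE).

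The 2 wordings of the failure label gave no tested difference. In a limma interaction term (120 min ischemia pigs minus atrial pressure pigs) 0 of 64 members and 0% of the array passed after adjustment. At an unadjusted p under 0.05 the interaction also held 0 of 64 members, against 5.67% of the array. The members with the smallest p in it were RPL4, RPS9 and RPL30. RPL4 had a mean change of 0.03 ± 0.08 in the 6 ischemia pigs and of 0.20 ± 0.10 in the 3 atrial pressure pigs (SD), a difference of -0.17 with a 95% interval of -0.41 to 0.08 and an adjusted p of 0.920. RPS9, at the messenger's entry, had a mean change of 0.03 ± 0.17 in the 6 pigs and of -0.12 ± 0.10 in the 3 pigs (SD), with a 95% interval of the difference of -0.13 to 0.44. RPL30 had a mean change of 0.54 ± 0.59 in the 6 pigs and of 0.90 ± 0.43 in the 3 pigs (SD), with a 95% interval of the difference of -1.01 to 0.29. The intervals are wide, and sets of 6 and 3 animals do not show that the responses were alike.

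Other genes of translation were described in the same way, and none in these lists passed the test. FAU and RACK1, ribosome components under other symbols, had log2 changes of 0.0029 ± 0.050 and -0.04 ± 0.06 (SE). Of 14 measured elongation factors and other genes with oligopyrimidine messengers, 7 had positive and 7 negative changes. Of 32 measured initiation factors 12 were positive and 20 negative, EIF5B having the smallest p with a change of 0.15 ± 0.08 (SE). Of 63 measured ribosome biogenesis genes 30 were positive and 33 negative. Among these GNL2, a nucleolar GTPase of large-subunit assembly, was higher in failure in 9 of 9 pigs, by 0.13 ± 0.06 (SE), with an adjusted p of 0.753 in limma.

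Of 15 measured genes of mTOR, S6 kinase and eIF2 kinase signalling, 9 had positive and 6 negative changes. ATF4, the transcription factor whose translation rises when eIF2 is phosphorylated, was higher in failure in 8 of 9 pigs. Its mean was 10.21 ± 0.28 in failure and 10.03 ± 0.25 at baseline (SD, n = 9 each), a change of 0.19 ± 0.06 (SE) with an adjusted p of 0.571 in limma. EIF2AK2, the kinase activated by double-stranded RNA, had a log2 change of -0.30 ± 0.17 (SE).

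The proteins of the mitochondrial ribosome, which translates the mitochondrial genome, had more closely correlated changes than those of the cytosolic one. The mean correlation of changes was 0.518 among the 58 measured mitochondrial ribosomal protein genes, against 0.147 among the 64 cytosolic ones, a difference that was not tested. Of the 58, 11 had positive and 47 negative changes, with a median of -0.03, and none passed. The smallest p belonged to MRPL15, with a change of -0.16 ± 0.07 (SE). By pig their median ran from -0.28 in pig 5, whose GAPDH difference was 0.94 higher in failure, to 0.19 in pig 9. With the GAPDH difference as a covariate the split was 35 positive and 23 negative, and without pig 5 it was 24 positive and 34 negative. The majority of signs thus turned with the covariate and was smaller without pig 5. With any other pig left out, negative changes stayed in the majority, from 38 of 58 without pig 8 to 54 of 58 without pig 14. They numbered 44 in the ischemia pigs alone and 41 in the atrial pressure pigs alone.

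**Figure D5:**
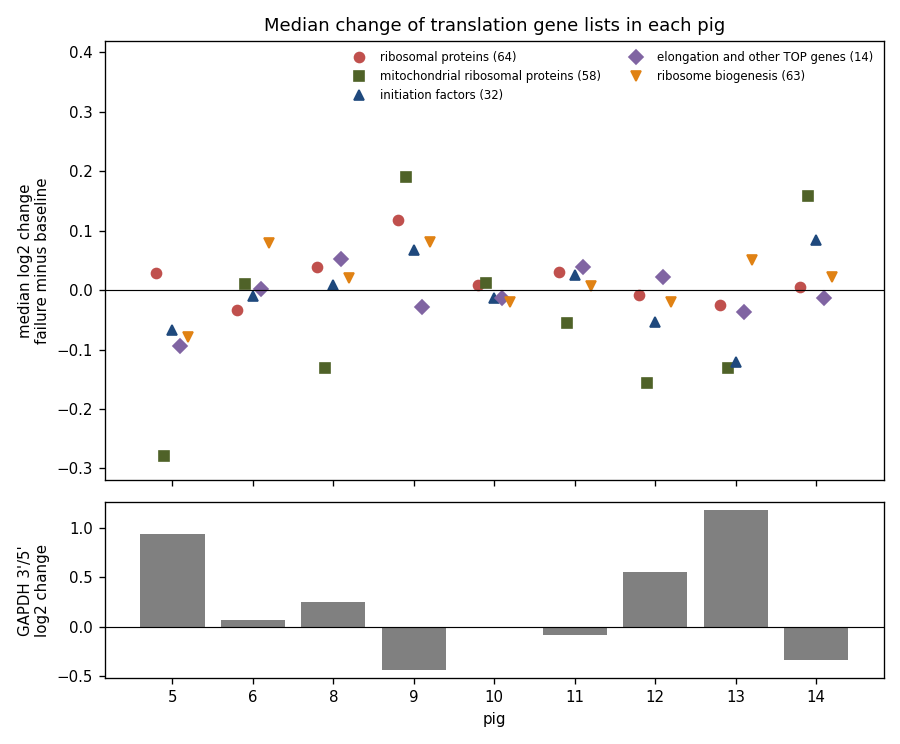
Median log2 change in failure minus baseline of 5 gene lists of translation in each of the 9 pigs (upper panel) and change of the GAPDH 3′ to 5′ log2 difference in the same pigs (lower panel). The mitochondrial list (squares) runs from -0.28 in pig 5 to 0.19 in pig 9, and the cytosolic ribosomal proteins (circles) from -0.03 in pig 6 to 0.12 in pig 9.

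Control probe sets for ribosomal RNA, which carries no poly(A) tail and is read only incidentally by this labelling, had SDs of the paired change of 0.33 to 0.58, against a median of 0.109 over the ribosomal protein genes. One of the 28S controls ranged from 9.02 to 11.5 (median 10.3) in failure and from 9.04 to 11.3 (median 10.6) at baseline. Its mean change was -0.15 ± 0.46 (SD, n = 9), lower in failure in 6 of 9 pigs, a difference smaller than the spread between animals. The other 28S control had a mean change of -0.097 ± 0.483 (SD), higher in 5 pigs and lower in 4. Both 18S controls were higher in 4 pigs and lower in 5. The smallest SD, 0.33, belonged to the dim 5S control, with medians of 3.59 in failure and 3.58 at baseline.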

How the data were processed

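RNA of each sample was extracted with Trizol and RNeasy columns, labelled with biotin by the GeneChip 3′ IVT Express kit and hybridised to one array, per the labels' protocols. One log2 intensity per probe set and array was deposited. The submitters' processing notes name Partek without a version, and how the authors corrected background, normalized and summarised is not given in the sources used here. No genome build is named either, so no coordinates are printed.

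Of 24123 probe sets, 188 controls were set aside and 23935 tested in R 4.3.3 (limma 3.58.1, linear fit and eBayes moderation with a term for the pig, two-sided tests, p-values adjusted by Benjamini-Hochberg over all tested probe sets, threshold 0.05). Symbols came from the platform's annotation: 10069 tested probe sets carry 1 symbol and 198 several. All 64 members matched RefSeq by Entrez identifier. Both samples of a pig come from one animal by the labels, and their deviations from the group means correlated at 0.449 to 0.750 over all tested probe sets, above every correlation with another pig's sample (at most 0.354). The number of arrays limits the precision. The scripts were tested on simulated data.

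Named genes were the members past the threshold, the 5 with the smallest p in each direction, the 3 with the smallest interaction p, those with the 5 largest and 3 smallest SDs of the change, the 5 with the largest ratio of SDs between to within pigs, and a fixed list of 25 genes, of which RPL3L, RPL39L, RPS3 and RPL10 are not analysed here. Of each translation list the 3 genes with the smallest p were eligible. The members and lists were chosen with earlier results of these data known. The alternatives were other pairings, scalings, filters, probe set choices, variance models, a GAPDH covariate, either label set alone and each pig left out.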

Additional observations from a re-analysis of the deposited data

Results flagged for a closer look

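Each member named in the report was examined in its failure levels, its baseline levels and its paired changes, 108 groups of 9 values in all, for a value whose gap to the nearest of the other 8 exceeded Dixon's 95% limit of 0.493 of the range. Such a value was found in 14 groups. A rate of 1 in 20 would give 5.4 groups, but that figure holds only for independent groups of unselected genes. Some genes were named for a wide spread and all groups share the same arrays, so no excess is read from these counts. Of the 14, 9 belong to pig 5, which also had the highest GAPDH 3′ to 5′ differences, 4 to pig 9 and 1 to pig 14. The part of RNA quality in these values was not tested.

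In failure, pig 5 was the lowest for RPL11, at a log2 intensity of 12.82 against 13.05 to 13.21 in the other pigs. It was likewise the lowest for RPL7L1 (8.96 against 9.39 to 9.74), RPL9 (12.33 against 12.84 to 13.16) and RPLP0 (13.07 against 13.36 to 13.58). RPS2 was at 12.23 in pig 5 against 12.82 to 13.20 elsewhere, and RPS23 at 13.19 against 13.36 to 13.51. At baseline the same animal was the lowest for RPL7L1 (8.96 against 9.37 to 9.77), RPLP0 (13.16 against 13.37 to 13.59) and RPS27L (10.09 against 10.28 to 10.35).

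Pig 9 had the highest changes of RPL36AL (0.25 against -0.08 to 0.07), RPLP1 (0.35 against -0.16 to 0.08) and RPS27L (0.39 against -0.12 to 0.10), and the highest failure level of RPS19 (13.28 against 13.04 to 13.16). Pig 14 had the highest failure level of RPL4, 12.81 against 12.34 to 12.55 in the other pigs.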

How the results depend on the processing

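No ribosomal protein gene passed the adjusted threshold under any of the 22 alternatives, and none passed in the label set interaction under those run for it. The fit without the replicate block also called 0 members, with a median log2 change of 0.0130, and called 0 of all probe sets (440 at an unadjusted p under 0.05) against 16 with the pairing. The median change of the members lay between 0.0028, without pig 9, and 0.0246, with quantile normalization. Members at an unadjusted p under 0.05 numbered 1 with the pig as a block (6.14% of all features), 2 with the pig as a random effect (5.99%), 3 with trended and robust variances (6.11%), 6 without moderation (5.98%), 7 with the mean of all probe sets of a gene (6.05%) and 0 with dim probe sets left out (6.37%). Over all probe sets the calls were 0 without moderation, 9 with the GAPDH covariate, 10 with trended and robust variances, 3 and 0 in the 6 and 3 pigs of either label set alone, 9 among 11968 bright probe sets, 7 or 5 among 6765 genes, and 2 (without pig 10) to 26 (without pig 8) with 1 pig left out. For the 36 named genes, 789 gene values were recomputed: none passed, 62 of them, in 20 genes with changes of at most 0.083 in the paired fit, took the other sign, and RPL32 alone moved by over 1 SD (0.10, mean of its probe sets). RPL30 ranged from 0.54 to 0.90. The mean correlation of the members' changes, 0.147, ranged from -0.0092 in the 3 atrial pressure pigs to 0.258 with centring on the 75th percentile, and was 0.0788 with quantile normalization, 0.0943 with the mean of all probe sets and 0.0841 without pig 9. The causes were not tested. Dim signals limit RPL30, RPL26 and RPS15A.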
